A study of Mus musculus with 2 samples.

Results

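MHC class II cells were the small group of mouse bone marrow cells in which the genes of MHC class II took a large share of the RNA and in which markers of B cells, macrophages and basophils stayed under set limits. A cell belonged to the group if it held at least 1000 unique molecular identifiers (UMIs, each 1 captured RNA molecule), if H2-Aa, H2-Ab1, H2-Eb1 and Cd74 together took at least 0.3% of them, and if it held fewer than 2 Cd79a UMIs, fewer than 3 C1qa UMIs and under 0.5% Mcpt8 UMIs. Of 10377 cells, 10113 reached 1000 UMIs and 131 met every condition. These cells were assembled as candidate dendritic cells. By the leading genes of their clusters, given further on, 73 of the 131 took a dendritic cell name. The others took no name, although their clusters also held genes shared by dendritic cells. The whole group is therefore called MHC class II cells.

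The cells came from bone marrow sorted by flow cytometry for E-cadherin, the adhesion protein encoded by Cdh1, and then split by cKIT, the stem cell factor receptor. The E-cadherin+cKIT+ cells and the E-cadherin+cKIT- cells were each captured as 1 single-cell library, here called the cKIT+ and the cKIT- library. The labels give FVB mice for both, without age or treatment, and the study names both wild-type mice and Vav-iCre;mTmG reporter mice, in which Cre is active in blood-forming cells, as the source of these cells, with 3 animals in all. The cKIT+ library held 95477153 UMIs in 6632 cells and the cKIT- library 24033994 UMIs in 3745 cells. Among cells with 1000 UMIs or more, the median cell held 13367 UMIs in the first and 4504 in the second. With 1 library per sort there is no replicate, so no comparison was tested, and 95% intervals (exact Poisson for sums, exact binomial for shares and ratios) cover counting error only. Levels are given as CPM, the UMIs of a gene divided by all UMIs of the summed cells and multiplied by 1000000. They come from tags at the 3′ end of transcripts, and levels are compared between cells and not between genes.

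MHC class II molecules carry fragments of taken-up protein to the surface, where helper T cells read them. H2-Aa and H2-Ab1 encode the chains of I-A, H2-Eb1 encodes a chain of I-E, and Cd74 encodes the invariant chain that holds the groove until the molecule reaches the endosome. Cathepsins then trim the invariant chain, and H2-DM exchanges its last fragment for peptide, restrained by H2-O. Ciita is the coactivator that switches these genes on, and it acts with RFX and NF-Y factors on the X and Y boxes of their promoters. Dendritic cells are the cells best known for this pathway. Conventional dendritic cells present antigen to T cells, whereas plasmacytoid dendritic cells are known for interferon production and carry less MHC class II.

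The promoters through which these genes are co-regulated share short motifs, and 3 of them are shown as examples, of which H2-Aa and H2-Eb1 are genes of the rule. The stretches run from 130 to 31 bases before the transcript start (RefSeq, GRCm38.p6, each written along the strand of its gene), with the core of the Y box, TGATTGG, and the end of the X box, AACNGATG, in capitals. They come from the reference strain, not from FVB reads. H2-Aa lies on the minus strand (chr17:34287854-34287953), and H2-Eb1 (chr17:34305737-34305836) and H2-DMb1 (chr17:34153061-34153160) lie on the plus strand.
H2-Aa: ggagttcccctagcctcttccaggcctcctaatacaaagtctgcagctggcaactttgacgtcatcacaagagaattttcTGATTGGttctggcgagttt
H2-Eb1: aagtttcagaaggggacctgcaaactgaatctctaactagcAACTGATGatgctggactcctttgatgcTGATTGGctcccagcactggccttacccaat
H2-DMb1: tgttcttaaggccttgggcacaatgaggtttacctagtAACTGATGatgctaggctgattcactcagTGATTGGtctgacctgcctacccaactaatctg
Both motifs were searched on both strands of windows reaching from 250 bases before to 50 after the start. TGATTGG was found in 7.82% of 32851 promoters, AACNGATG in 2.32% and both in 0.186%. H2-Eb1, H2-Eb2, H2-DMb1 and H2-DMb2 held both motifs, whereas H2-Aa, H2-Oa, H2-Ob and Rfx5 held TGATTGG alone. Ctss held AACNGATG alone. No match was found for H2-DMa, Rfxank, Ctsl, Ctsd, Lgmn, Cst3, Cd53, Cd37 and Cd82. H2-Ab1, Cd74, Ciita, Rfxap, Ctsb, March1 and Cd83 had no entry among the promoters searched. A match of these letters is a description of the window and not a measured binding site.

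In the cKIT+ library 93 of 6425 cells with 1000 UMIs or more were MHC class II cells, a share of 1.45% (interval 1.17 to 1.77). In the cKIT- library 38 of 3688 were, a share of 1.03% (0.730 to 1.41), and the intervals overlapped. The limits on other lineages decided much of the cKIT- selection. There, 252 cells reached the MHC class II minimum and 211 of them held 2 or more Cd79a UMIs. In the cKIT+ library 176 cells reached it, of which 56 held 3 or more C1qa UMIs and 24 held 2 or more Cd79a UMIs. The libraries shared 10 cell barcodes, none of them among the selected cells. The doublet caller Scrublet placed 9 of the 93 cKIT+ cells and 0 of the 38 cKIT- cells among the highest scores of their library.

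The MHC class II genes that chose the cells made up 3.78% of all UMIs in the median cKIT+ cell, with a range of 0.421% to 11.5%. In cKIT- cells the median was 1.89% and the range 0.316% to 9.46%. The cKIT+ cells nearest to the minimum held 0.421%, 0.443% and 0.497%, and those nearest below it 0.219% and 0.203%. In the cKIT- library the cells nearest above held 0.316%, 0.586% and 0.753%, and those nearest below 0.297% and 0.268%. Only 4 cKIT+ and 2 cKIT- cells lay between 0.3% and 0.6%, and the median cell outside the group held no UMI of these genes in either library. In the plot of MHC class II share by cell many cKIT+ cells lie near 10%, and the 45 cKIT+ cells of the type 2 group described further on had a median of 8.76%. The selected cells were of similar depth. The median cKIT+ cell had 6448 UMIs from 2161 genes and the median cKIT- cell 6182 UMIs from 2272 genes. Mitochondrial RNA was not, at a median of 3.17% in cKIT+ and 6.61% in cKIT- cells, and its part in any difference between the libraries was not tested.

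**Figure D1:**
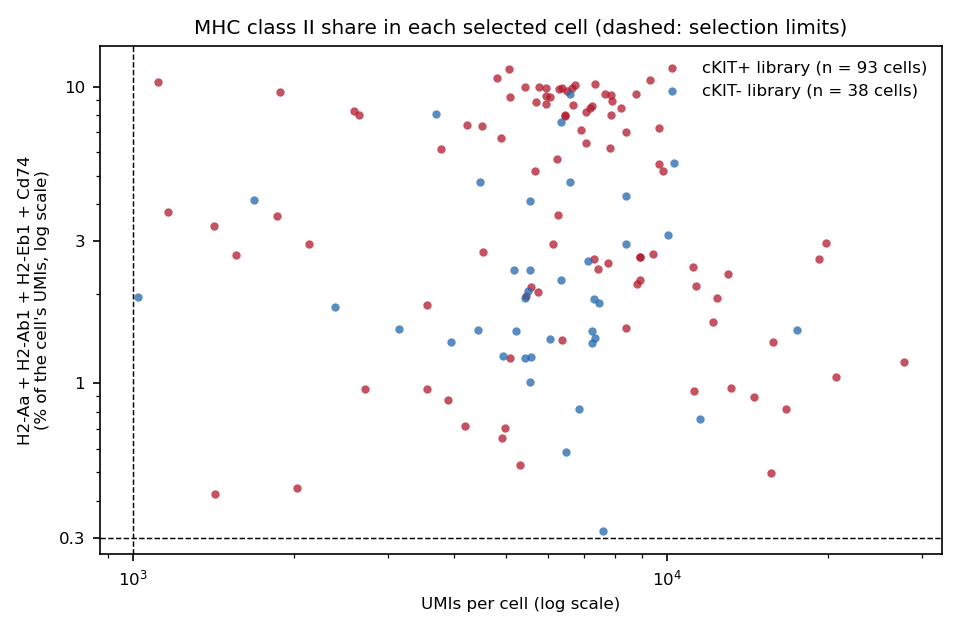
Each point is 1 selected cell, with its UMIs on the horizontal log axis and the percent of UMIs from H2-Aa, H2-Ab1, H2-Eb1 and Cd74 on the vertical log axis (red, 93 cKIT+ cells; blue, 38 cKIT- cells; dashed lines, the selection limits of 1000 UMIs and 0.3%). Many cKIT+ cells lie near the top, with a highest value of 11.5%, and the cKIT- cells have a median of 1.89%.

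Among the genes of the rule, H2-Aa (chromosome 17, 34282744 to 34287823, minus strand, GRCm38) had 9303 CPM in cKIT+ and 5301 CPM in cKIT- selected cells, against 32.5 and 123 CPM in all other cells. H2-Ab1 (chromosome 17, 34257689 to 34269419, plus strand) had 9385 and 4510 CPM, against 36.5 and 85.2 CPM. Cd74 had 26746 and 15844 CPM. These 3 genes were higher in the selected cells of the cKIT+ library, by 1.76-fold for H2-Aa (1.65 to 1.87), 2.08-fold for H2-Ab1 (1.95 to 2.22) and 1.69-fold for Cd74 (1.63 to 1.75). H2-Eb1 (chromosome 17, 34305867 to 34316674, plus strand) was not, with 110 CPM in cKIT+ and 124 CPM in cKIT- cells and a ratio of 0.88 (0.57 to 1.40). Because these genes chose the cells, the values describe the selection.

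Across all genes, 3418 reached 50 CPM and 10 UMIs in the selected or the other cells of the cKIT+ library. Of these, 277 (8.10%) were at least 4-fold higher in the selected cells and 113 (3.31%) at least 4-fold lower, or 172 lower without the cells of highest doublet score. In the cKIT- library 346 of 3712 (9.32%) were higher and 298 (8.03%) lower. These shares are the background for the lists that follow, and since the cells were chosen on their RNA, a list's count against the other cells is a description.

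The machinery around MHC class II was high in the same cells. Of 21 measured genes for MHC class II expression and loading, 16 reached the minimum in the cKIT+ library, where 12 were at least 4-fold higher and 0 lower than in the other cells, with a median log2 ratio of 3.47. In the cKIT- library 14 reached it, 9 were higher and 1 lower, with a median of 3.64, beside a median over all genes of -0.09 and 0.09. Ciita, the coactivator (chromosome 16, 10480059 to 10528418, plus strand), had 309 CPM (269 to 354) in cKIT+ and 236 CPM (179 to 306) in cKIT- selected cells. The other cells held 1.13 and 8.30 CPM. H2-DMa, a chain of the peptide exchanger, had 673 and 704 CPM. H2-DMb1, its partner chain, had 445 and 601 CPM, and H2-DMb2, a near-identical copy whose reads may be split with it, had 163 and 145 CPM. H2-Oa, a chain of the restraining H2-O, had 305 CPM in cKIT+ and 157 CPM in cKIT- selected cells, but it was also present in the other cells at 89.3 and 245 CPM, so it was not higher in the selected cKIT- cells. Rfx5, which encodes an RFX subunit, stayed under the minimum of 50 CPM. It had 15.9 CPM in cKIT+ selected cells, where the other cells held 9.31 CPM. In cKIT- selected cells it had 12.4 CPM, where the others held 7.37 CPM.

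The proteases varied in how far the libraries lay apart. Ctss, the cathepsin that makes the last cut in the invariant chain, had 1072 CPM in cKIT+ and 1143 CPM in cKIT- selected cells, and Ctsb had 642 and 1035 CPM. Ctsl, a related cathepsin, had 152 CPM (124 to 184) against 1068 CPM (942 to 1207), a level 7.04 times higher in the cKIT- library (5.59 to 8.92). Ctsd, an aspartic protease, had 392 CPM in cKIT+ and 108 CPM in cKIT- cells, but 208 of its 271 cKIT+ UMIs lay in 10 cells of the group led by Pf4 described further on. It was the gene of the list that was at least 4-fold lower than in the other cKIT- cells, which held 704 CPM. Cst3, an inhibitor of cathepsins abundant in dendritic cells, had 7393 and 2998 CPM. March1, the ligase that removes MHC class II from the surface of resting cells, had 99.7 and 58.0 CPM.

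Genes of activation were scarce. None of the 9 costimulation and checkpoint ligands reached the minimum in either library. Cd86, a ligand for T cell costimulation, had 21.7 CPM in cKIT+ and 12.4 CPM in cKIT- cells, Cd40 had 20.2 and 16.6 CPM, and Cd80 had 7.23 and 4.14 CPM. Tnfsf4 and Cd70 had no UMI. Of the 14 genes of mature migratory dendritic cells, Ccl22, Cacnb3, Il12b and Apol7c had no UMI in either library. Ccr7, the receptor that guides mature dendritic cells to lymph nodes, had 2 UMIs in all 131 cells. A count of 0 in the cKIT- cells allows up to 12.4 CPM, so low levels of these genes were not detectable there.

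**Figure D2:**
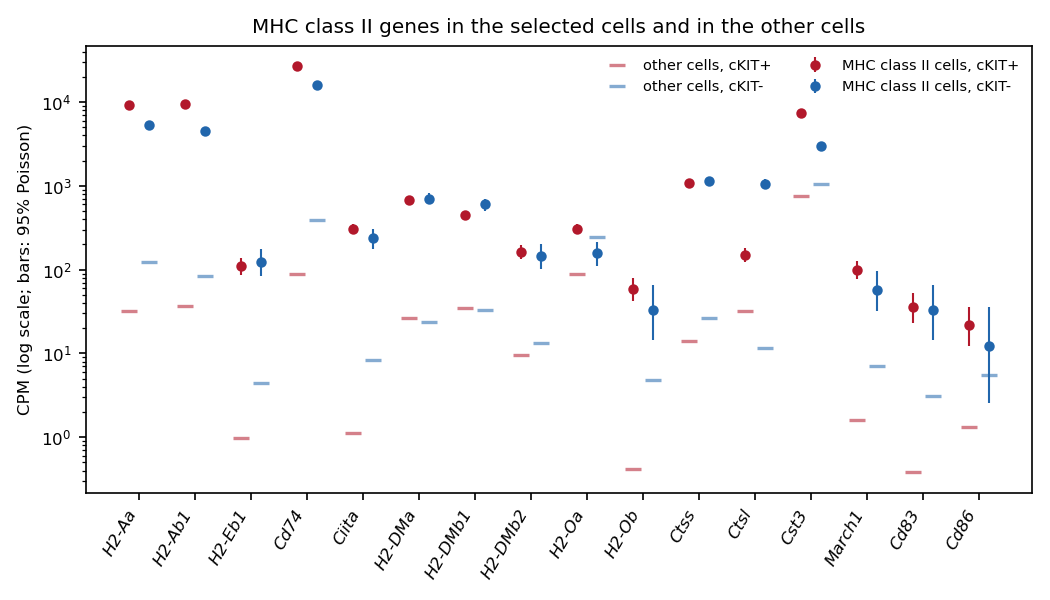
CPM on a log axis for 16 genes of the MHC class II pathway and activation in the selected cells (dots with 95% Poisson bars; red, cKIT+; blue, cKIT-) and in the other cells of the same library (dashes). Ctsl stands at 152 CPM in cKIT+ and 1068 CPM in cKIT- selected cells, and H2-Oa is the gene whose dash for the other cKIT- cells, 245 CPM, lies above the selected cells.

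The label of dendritic cells was checked against lists of markers. Of 12 genes shared by dendritic cells, 10 reached the minimum in the cKIT+ library and 6 were at least 4-fold higher than in the other cells, and in the cKIT- library 5 of 8 were. Flt3, the receptor that dendritic cell development depends on, had 76.6 CPM in cKIT+ and 116 CPM in cKIT- selected cells, against 0.719 and 0.337 CPM in the others. Batf3, a transcription factor of conventional dendritic cells, had 129 and 149 CPM, against 0.444 and 0.505 CPM. Zbtb46, which marks the conventional lineage, had 26.0 and 8.28 CPM. With both libraries summed it had 21.4 CPM, against at most 1.34 CPM in the C1qa, Cd79a, Csf1r and Mcpt8 cells described further on. For type 1 conventional dendritic cells, 4 of 5 genes were higher in each library, led by Irf8, which plasmacytoid cells also express. Xcr1 and Itgae of that list had no UMI, and Clec9a, its receptor for dead cells, had 24.6 and 20.7 CPM. For type 2 conventional dendritic cells, 8 of 10 genes were higher in the cKIT+ library, and 5 of 8 were higher and 1, Cd7, was lower in the cKIT- library. Cd209a, a C-type lectin of these cells, had 627 CPM in cKIT+ and 493 CPM in cKIT- selected cells. Other cells held 0.793 and 0.211 CPM.

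Of 25 transcription factors of dendritic cells, 6 of the 16 that reached the minimum were higher in the cKIT+ library, and 9 of 19 were higher and 1, Cebpa, was lower in the cKIT- library. Irf8, which guides plasmacytoid and type 1 fate, had 666 and 2290 CPM. Irf4 and Klf4, factors of the type 2 branch, had 40.5 and 37.3 CPM and 137 and 174 CPM. Zeb2 had 363 and 621 CPM. Monocyte genes were high as well, with 7 of 11 higher in the cKIT+ library, and 11 of 12 higher and 1, Ccl9, lower in the cKIT- library. Lyz2, lysozyme, gave most of their UMIs, with 3004 and 11152 CPM.

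The genes outside the rule with the largest ratios over the other cells were ranked in each library. In the cKIT+ library they were Cd209b, Nccrp1, Cd209a, Cd209d, Ifi205, Batf3, Siglech, Sirpb1c, Ciita and Fcer2a. In the cKIT- library they were Klk1, Cd209a, Siglech, Paqr5, Klk1b27, Cd209d, Klra17, Dntt, Cd300c and Ccr9. Klk1, a kallikrein, had 111 UMIs in the 38 selected cKIT- cells and none in any other cKIT- cell. Klk1 and Klk1b27 are near-identical copies between which reads may be split, and the Cd209 genes are related lectins.

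RNA of other lineages was measured in the selected cells. Basophil genes were low, with 9 of 10 at least 4-fold lower than in the other cells in the cKIT+ library and 11 of 11 in the cKIT- library. Mcpt8, a basophil protease that the rule limited, still had a UMI in 60.2% of cKIT+ and 52.6% of cKIT- selected cells, at 370 and 124 CPM against 10831 and 26293 CPM in the other cells. In 1 cKIT+ cell lay 120 of the 256 Mcpt8 UMIs, 0.432% of the cell and so just under the limit, and the median cKIT+ selected cell held 0.0129%. Among B cell genes, Pax5 and Vpreb3 had no UMI in either library and Cd79a, limited by the rule, had 1. Ighm, the heavy chain of IgM, had 500 CPM in cKIT+ and 1102 CPM in cKIT- selected cells, with a UMI in 87.1% (78.5 to 93.1) and 94.7% (82.3 to 99.4) of them. In Mcpt8 cells, the basophil-like cells with at least 0.5% Mcpt8 UMIs, 3.06% and 0.987% held an Ighm UMI although they were deeper, with a median of 14281 and 7884 UMIs. Of the genes of the sort, Cdh1 had 11.6 CPM in cKIT+ and 12.4 CPM in cKIT- selected cells against 61.1 and 190 CPM in the other cells. Kit had 57.8 CPM (40 UMIs) in the cKIT+ selected cells, where the other cells held 37.1 CPM, and no UMI in the cKIT- selected cells.

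Neutrophil RNA rested on few cells. The 8 genes of this list summed to 12209 CPM in the cKIT+ selected cells and to 33.1 CPM in the cKIT- cells. Of 8448 UMIs of the list in the cKIT+ cells, 97.9% lay in 4 cells, which held 10.9% to 32.3% of their RNA in these genes, and 3 of the 4 were among the highest doublet scores. Camp had 71.4% of its UMIs in 1 cell and S100a8 84.2%. No cKIT- selected cell held more than 0.0836%.

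Clustering of the 131 cells on 1500 variable genes gave 7 groups, and 2 of them, with 73 cells, were named because at least 3 of their 10 leading genes stood on 1 list of markers and no other list held as many or went against it. The largest, with 51 cells, was type 2 conventional dendritic cell-like. Its leading genes over the other selected cells were H2-Ob, Tnip3, Mgl2, Olfm1, Cd209b, Cd209a, Slamf9, Cysltr1, Tmem176a and Clec4b1. Cd209a had 1507 CPM in it and a UMI in 49 of 51 cells, and Clec10a, a lectin for galactose-type sugars, had 2123 CPM. Its cells held the most MHC class II RNA, with a median of 8.63% and a range of 1.37% to 11.5%. H2-Ob had 45 of its 49 UMIs here. Lyz2 stood at 2552 CPM, and 14 of 14 monocyte genes had a UMI.

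The group of 22 cells was plasmacytoid dendritic cell-like, led by Klk1, Gm14964, Dntt, Cox6a2, Cd300c, Iglc3, Ccr9, Pir, Lefty1 and Pacsin1. All 18 plasmacytoid genes were present at 20 CPM or more. Siglech, a lectin receptor of these cells (chromosome 7, 55768178 to 55778925, plus strand), had 3230 CPM and a UMI in 22 of 22 cells. Bst2, known as tetherin and as a plasmacytoid marker, had 5241 CPM, Irf8 4890 CPM and Tcf4, the factor that sets plasmacytoid fate, 2543 CPM. MHC class II RNA was lower, with a median of 1.41% of UMIs, and Lyz2, Csf1r and Batf3 had no UMI. Ctsl had 2494 CPM here against 22.4 CPM in the type 2 group, and Ctsb 1799 against 215 CPM. Genes shared with B lineage cells stood high, with Ighm at 1758 CPM, Iglc3 in 21 of 22 cells, and Dntt, the enzyme that adds bases to rearranging receptor genes, in 13 of 22. Cd209a was not absent, with 30 UMIs in 11 of the 22 cells. Because the cells were clustered on these genes, they describe the groups and test nothing.

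**Figure D3:**
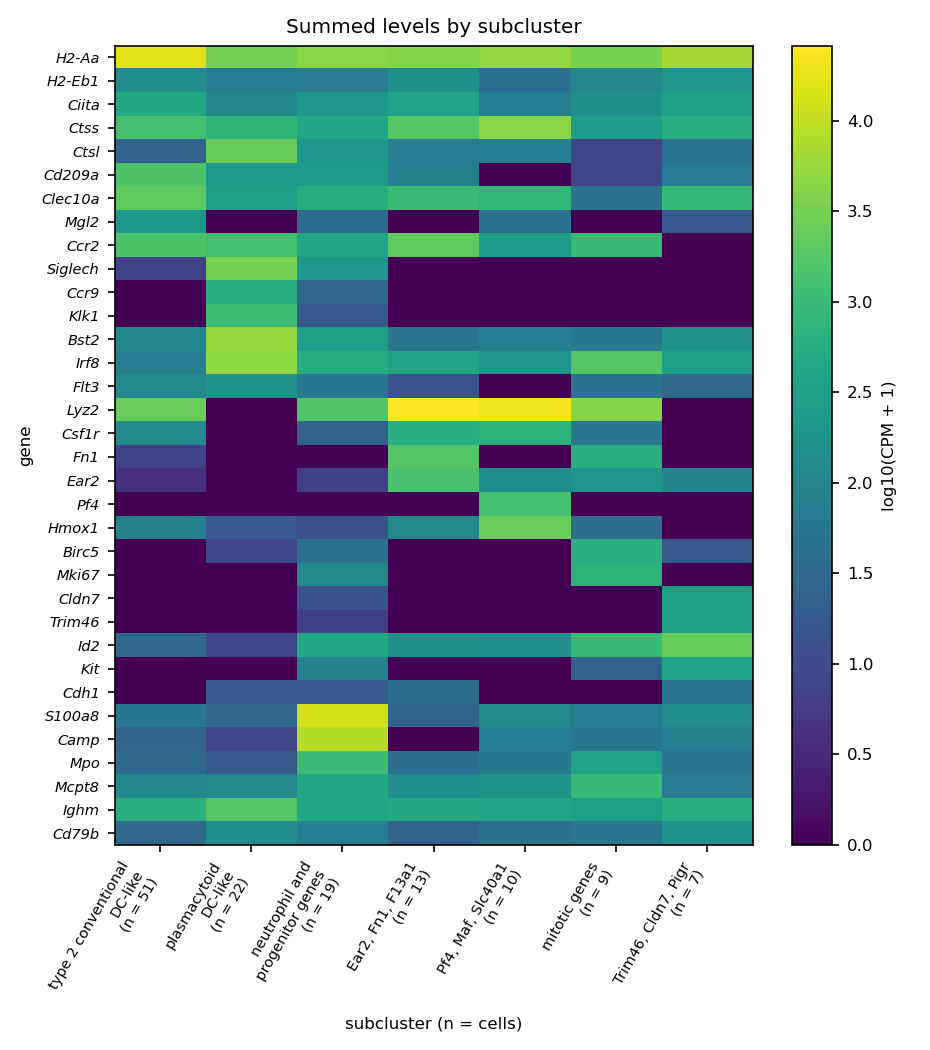
Summed level of marker genes (rows) in the 7 groups of selected cells (columns, n in cells), as log10(CPM + 1) on the colour scale. Siglech, Ccr9 and Klk1 are high in the plasmacytoid group, Cd209a, Clec10a and Mgl2 in the type 2 group, and Trim46 and Kit in the group led by Trim46, Cldn7 and Pigr.

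The other 5 groups, with 58 cells, took no name. The 12 genes shared by dendritic cells summed to 1580, 1592 and 547 CPM in the groups of 19, 13 and 10 cells. In the groups of 9 and 7 cells they summed to 2654 and 4386 CPM, of which Id2 gave 972 and 2439 CPM. In the group of 19 cells Id2 was also the most abundant of them, at 424 CPM. The type 2 and plasmacytoid groups had 2123 and 1635 CPM of these genes. There Id2 was not the most abundant, and Plbd1 led at 770 CPM and Bcl11a at 646 CPM. A group of 19 cells was led by Ngp, Camp, Wfdc21, Ltf, S100a8, S100a9 and Lcn2, all but Wfdc21 on the neutrophil list. It held the 4 cells rich in neutrophil RNA and 6 cells with high doublet scores. Its median cell held 0.0206% neutrophil RNA, so these leading genes came from few cells and gave it no name. Mpo, a granule enzyme of early myeloid cells, had 1047 CPM in it with a UMI in 12 of 19 cells. A group of 13 cells was led by Ear2, Csf3r, Mtus1, Ear6, Ear1, Fn1, Ndnf, F13a1, Hopx and C3. Lyz2 had 26089 CPM and Ccr2 2165 CPM in it, and all 14 monocyte genes were present, although 3 of the leading genes, the ribonucleases Ear1, Ear2 and Ear6, stood on the eosinophil list. Epx, Prg3 and Siglecf of that list had no UMI in any selected cell, so neither list gave a name. The Ear genes are near-identical copies with uncertain assignment of reads.

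A group of 10 cells, all from the cKIT+ library, was led by Pf4, Maf, Arhgap19, Slc40a1, Art2b, Itgb5, Gdpd1, Fcna, Mertk and Pla2g2d. It held UMIs of 11 of 12 macrophage genes, of which 2 were among the leading genes, with Hmox1, which breaks down haem, at 2574 CPM and Slc40a1, the iron exporter, at 568 CPM. Ctsb at 5838 CPM, Ctsd at 4216 CPM and Ctss at 4500 CPM were the highest of any group. The limit of 3 C1qa UMIs in the rule bore on these cells, in which C1qa had 8 UMIs. A group of 9 cells was led by Hmmr, Cdkn3, Diaph3, Ccnb1, Asf1b, Ccnb2, Hist1h1b, Ccna2, Birc5 and Pclaf, genes of dividing cells. All 12 genes shared by dendritic cells stood at 20 CPM or more in it. So did 9 of the 12 genes of type 1 conventional dendritic cells, with Irf8 at 1772 CPM. All 9 cells held 10 or more UMIs of the G2 and mitosis list and 7 held as many of the S phase list. No cell of the type 2 or plasmacytoid groups did. In the group of 19 cells 6 held 10 or more UMIs of the S phase list and 2 of the G2 and mitosis list. These 9 cells were also the deepest, with a median of 13219 UMIs. Of them 2 had high doublet scores, and of its 132 Mcpt8 UMIs 120 lay in 1 cell, the cell just under the Mcpt8 limit.

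The smallest group, 7 cells of the cKIT+ library, differed from the other selected cells in several lineage genes. It was led by Trim46, Cldn7, Pigr, Il18r1, Clec4a4, Pbld1, Lingo4, Nccrp1, Gm15848 and Col9a3. Trim46 had 20 of its 21 UMIs in 5 of these cells, at 327 CPM. Kit had 21 of its 40 UMIs here, Id2 stood at 2439 CPM, Cd7 at 606 CPM and Ccr6 at 246 CPM. Il7r, Il2ra, Ccr2, Lyz2 and Csf1r had no UMI. MHC class II genes made up 2.46% of the median cell, Ciita had 327 CPM and Cst3 8985 CPM. With 7 cells and 61100 UMIs, 3 UMIs amount to 49.1 CPM, so a count of 0 leaves room for low levels. In 5 of 8 alternative clusterings these 7 cells were placed in a larger group.

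The libraries were next compared within the selected cells, to ask which of these cells the cKIT split separated. The type 2 group made up 48.4% (37.9 to 59.0) of the cKIT+ selected cells, 45 of 93, and 15.8% (6.02 to 31.2) of the cKIT- selected cells, 6 of 38. In 2 of 8 alternative clusterings the group with the highest Cd209a had 13 or 17 of the 131 cells in place of 51. The plasmacytoid group had the opposite order, with 5.38% (1.77 to 12.1), 5 of 93, against 44.7% (28.6 to 61.7), 17 of 38. The group led by Ear2 and Fn1 also stood on the cKIT- side, with 2 of 93 against 11 of 38 cells. The groups led by Pf4 and by Trim46 had 10 and 7 cells in the cKIT+ and 0 in the cKIT- library. The intervals of the libraries lay apart for the type 2, the plasmacytoid and the Ear2 and Fn1 groups and overlapped for the other 4. A group found in 1 library cannot be told apart from a property of that library.

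**Figure D4:**
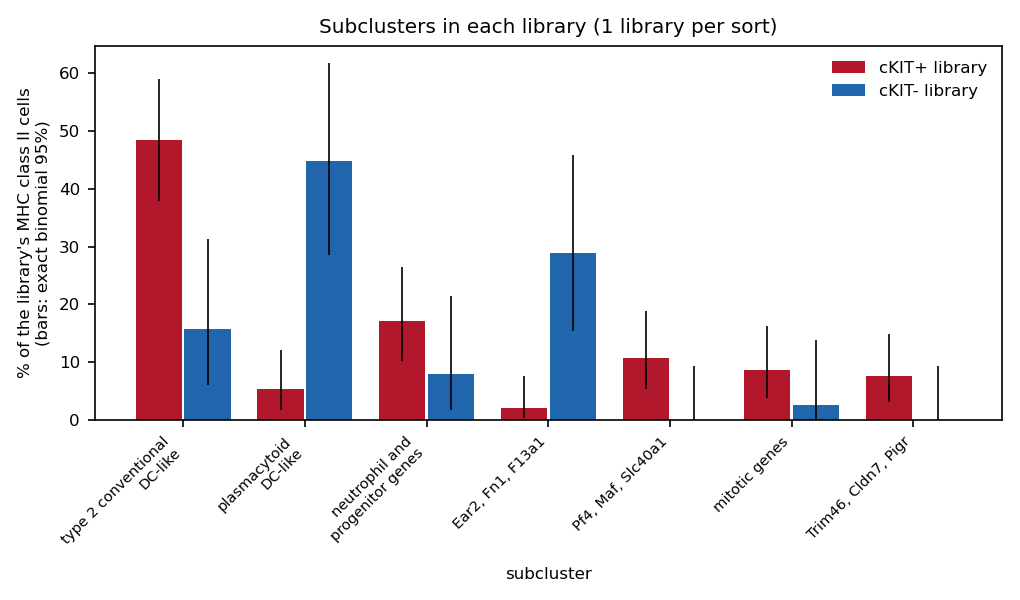
Share of the selected cells of each library in each of the 7 groups (red, cKIT+, 93 cells; blue, cKIT-, 38 cells), with exact binomial 95% bars. The type 2 group takes 48.4% of cKIT+ and 15.8% of cKIT- cells, and the plasmacytoid group 5.38% and 44.7%.

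Single genes were also counted without clusters. Siglech had a UMI in 8 of 93 cKIT+ cells, 8.60% (3.79 to 16.3), and in 18 of 38 cKIT- cells, 47.4% (31.0 to 64.2). With every cell thinned to 1000 UMIs the shares were 6.45% and 44.7%. Mcpt8 cells held a Siglech UMI in 0.0319% of cKIT+ and 0% of cKIT- cells. Cd209a had a UMI in 60.2% (49.5 to 70.2) of cKIT+ and 47.4% (31.0 to 64.2) of cKIT- cells, or 37.6% and 29.0% when thinned, against 0.160% and 0.0449% of Mcpt8 cells. The Cd209a intervals of the libraries overlapped. At 2 or more UMIs, Siglech and Cd209a were both present in 2 cKIT+ and 8 cKIT- cells, of 7 and 18 with Siglech and 47 and 15 with Cd209a, so the Cd209a share does not stand for the type 2 group. Siglech and Lyz2 were both present in 1 and 0 cells, although 62 and 18 cells held Lyz2.

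Of 3470 genes with enough UMIs, 60 (1.73%) were at least 4-fold higher in the cKIT+ and 78 (2.25%) at least 4-fold higher in the cKIT- selected cells. All 18 plasmacytoid genes reached the minimum, and 15 of them were among those higher in the cKIT- cells, with a median log2 ratio of -2.55 beside -0.15 over all genes. Siglech had 165 CPM (136 to 198) in cKIT+ and 1321 CPM (1180 to 1474) in cKIT- cells, an 8.02-fold difference (6.46 to 10.0). Bst2 differed 6.01-fold (5.15 to 7.04), Tcf4 5.67-fold (4.59 to 7.02) and Ly6d, a surface protein of lymphoid and plasmacytoid progenitors, 15.5-fold (11.3 to 21.6). Irf8 differed by 3.44-fold (3.03 to 3.90) and so fell short of the limit. Of the 10 type 2 genes, Mgl2 alone passed 4-fold toward cKIT+ cells, with its cKIT- UMIs in 1 cell, and 0 passed toward cKIT- cells, with a median of 0.09. Cd209a had a ratio of cKIT+ to cKIT- of 1.27 (1.04 to 1.57). Among the MHC class II machinery 0 of 16 genes passed 4-fold toward cKIT+ and 1, Ctsl, toward cKIT-.

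The genes with the largest ratios toward the cKIT+ side were Camp, S100a8, S100a9, Ngp and Lcn2, all of the neutrophil list and all resting on the 4 cells named above. Without those 4 cells, a choice made after their values were seen, 62 genes were higher in cKIT+ and 79 in cKIT- cells. Id2, a factor that restrains E proteins, had 526 CPM in cKIT+ and 74.5 CPM in cKIT- cells. Toward the cKIT- side the largest ratios were 212-fold for Fn1 (71.6 to 1036), 86.0-fold for Mzb1, 48.7-fold for Igkc, 23.9-fold for Gm14964 and 22.2-fold for Ear1. Single cells weighed on these values. The cKIT- cell highest for Igkc held 37 of its 51 UMIs, the cell highest for Mzb1 11 of 30, and the cell highest for Fn1, in the dividing group, 77 of 222. Fn1, fibronectin, had 919 CPM in cKIT- and 4.34 CPM in cKIT+ cells. Beside these differences stands the unlike make-up of the libraries. The plasmacytoid group had 5 of 93 cKIT+ and 17 of 38 cKIT- cells, and the Ear2 and Fn1 group 2 and 11. The mitochondrial share and the Ighm level were also higher in the cKIT- cells, and Ighm stood at 1758 CPM in the plasmacytoid group. The part of each was not tested.

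**Figure D5:**
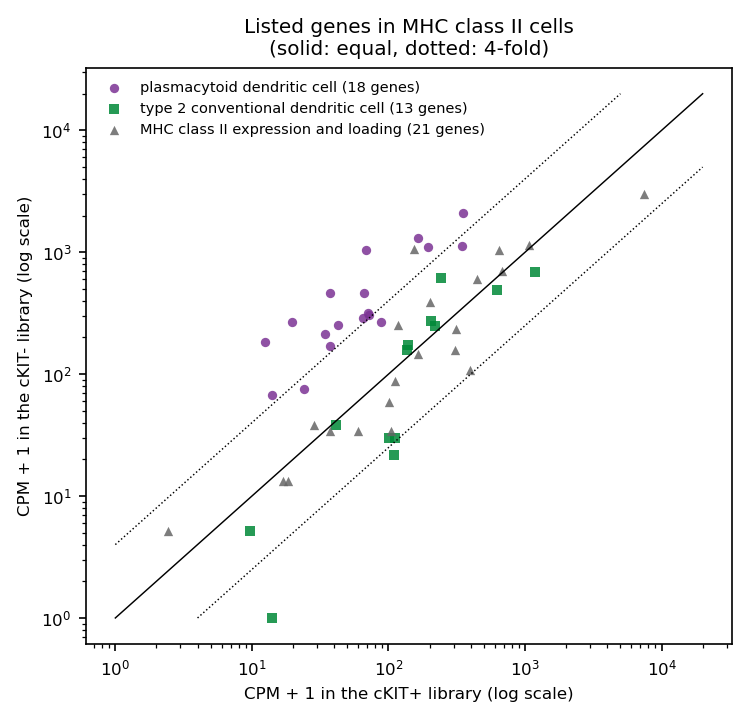
CPM + 1 in cKIT+ selected cells (horizontal log axis) against cKIT- selected cells (vertical log axis), each point 1 gene of 3 lists; the solid line marks equal levels and the dotted lines 4-fold. Of the 18 plasmacytoid genes, 15 lie beyond the upper dotted line, and of the MHC class II machinery Ctsl lies beyond it too, while Ctsd (392 and 108 CPM) and Cst3 (7393 and 2998 CPM) lie below the solid line.

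The libraries were also compared within each named group. In plasmacytoid-like cells Siglech had 3391 CPM (2734 to 4159) in the 5 cKIT+ cells and 3184 CPM (2835 to 3563) in the 17 cKIT- cells. Bst2 had 5640 and 5128 CPM, Irf8 4755 and 4928 CPM, Tcf4 2322 and 2606 CPM, and Ctsl 2359 and 2532 CPM, with overlapping intervals for each. H2-Aa had 2212 CPM (1688 to 2847) and 3604 CPM (3233 to 4006), higher in the cKIT- cells. Of 1601 genes, 2 (0.125%) were at least 4-fold higher in cKIT+ and 36 (2.25%) in cKIT- cells. Egr1, an immediate early gene, had the largest ratio toward cKIT+ with 13 UMIs against none. Cirbp, Cd209a, Capns1, Mzb1 and Zfp36l2 had the largest ratios toward cKIT-, each with 1 UMI in the 5 cKIT+ cells, so their size is poorly fixed.

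In type 2-like cells H2-Aa had 17103 CPM (16611 to 17606) in the 45 cKIT+ cells and 11935 CPM (10938 to 12997) in the 6 cKIT- cells. Cd74 had 50191 and 31577 CPM, and Ciita 482 and 407 CPM with overlapping intervals. Cd209a had 1446 CPM (1306 to 1598) and 1876 CPM (1494 to 2326), and Clec10a had 2242 and 1401 CPM. Here 43 of 2540 genes (1.69%) passed 4-fold toward cKIT+ and 5 (0.197%) toward cKIT- cells. In both named groups most calls fell toward the side with more UMIs, which held 267618 against 44241 UMIs (cKIT+ and cKIT-) in type 2-like and 27128 against 95173 UMIs in plasmacytoid-like cells, and the part of depth in these counts was not tested. Zfp36l1, Asap1, Zbtb20, Pltp and Gm10073 led the first, each with 1 or 2 UMIs in the 6 cKIT- cells. Rtl8a, Cycs, Anxa6, Anxa2 and Smim5 made up the second. The median mitochondrial share was 2.51% in cKIT+ and 4.66% in cKIT- type 2-like cells, and 5.43% and 8.11% in plasmacytoid-like cells. Its part in these differences was not tested.

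Compared with the 4 classes nearest to them, with both libraries summed, the selected cells had the highest level of H2-Aa, a gene that chose them, so that its order describes the rule. Cells that met the MHC class II minimum were left in the other classes only through a limit on Cd79a, C1qa or Mcpt8, and Csf1r cells are below that minimum by construction. The classes were split unevenly between the libraries. There were 112 cKIT+ and 4 cKIT- C1qa cells, 73 and 237 Cd79a cells, 50 and 27 Csf1r cells and 3135 and 2228 Mcpt8 cells. The part of the library in these comparisons was not tested. H2-Aa had 8267 CPM in selected cells, 1964 CPM in Cd79a cells, 1720 CPM in C1qa cells, 16.4 CPM in Csf1r cells (at least 2 Csf1r UMIs and in no other class) and 4.59 CPM in Mcpt8 cells. Ciita had 290, 139, 37.4, 2.45 and 0.404 CPM in the same order. Against Csf1r cells 9 of 16 genes of the MHC class II machinery were at least 4-fold higher, beside 3.69% of all genes, and 9 of 10 genes shared by dendritic cells were. Of 13 monocyte genes 0 were higher and 2 lower, beside 1.93% of all genes lower, with a median log2 ratio of -0.29. Lyz2 had 5112 CPM in selected and 8288 CPM in Csf1r cells. Against C1qa cells, which the rule set apart by that gene, 7 of 16 machinery genes were higher and 1 lower, beside 3.96% and 3.58% of all genes, and 9 of 11 macrophage genes were lower. Flt3 had 86.8 CPM in selected cells and 2.01 CPM in C1qa cells. The C1qa cells also held neutrophil RNA, with S100a9 at 24349 CPM against 3290 CPM in selected cells. Against Cd79a cells, 5 of 17 machinery genes were higher and 1 lower, beside 6.67% and 4.30% of all genes, and H2-Ob stood at 52.5 CPM in selected and 76.6 CPM in Cd79a cells. Ighm had 656 CPM in selected and 7752 CPM in Cd79a cells. Against Mcpt8 cells, 11 of 16 machinery genes were higher and 0 lower, beside 9.05% and 4.97% of all genes.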

How the data were processed

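Each of the 2 sorts, E-cadherin+ with and without cKIT, gave 1 library of bone marrow cells. Its deposited values are whole UMI counts for 31053 genes in every cell, made by the authors, per the submitters' processing notes, with Cell Ranger 3.0.2 against mm10. The release of their annotation is not given in the sources used here. The labels and the paper differ on the 10x kit version and on the mice.

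Counts were read as deposited, and no cell filter other than the rule was applied. Cells were selected, summed by class and library and scaled to CPM. A gene was counted at 4-fold or more among genes with at least 50 CPM and 10 UMIs on either side, a side at 0 being raised to 3 counts over the group. Clusters were made with Scanpy 1.11.5 (15 principal components, 15 neighbours, resolution 0.8) and named where at least 3 of the 10 leading genes were fixed markers of 1 type, unless these came from few cells or defining markers were at 0, a limit set with the values seen. Leading genes had at least 100 CPM and a UMI in 20% of the cells. Genes named are those of fixed lists, the 10 with the largest ratio over the other cells, the 5 in each direction between libraries and the 10 leading genes of each cluster. Members and lists were chosen with earlier results of these data known. Scrublet marked 292 cKIT+ and 3 cKIT- cells, so doublets were kept and the 352 and 112 cells with the highest scores (0.8% per 1000 cells) were left out as an alternative. edgeR 4.0.16 gave TMM factors only. The 4-fold count of calls was tested on simulated data, as a check of the counting and not of a difference between the sorts. Coordinates come from GENCODE for GRCm38 and promoters from RefSeq. Ifi30, Azu1 and Clec7a were not analysed here.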

Additional observations from a re-analysis of the deposited data

Results flagged for a closer look

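Ly6c2, Cd7 and Ccl6 stood on opposite sides of the other cells in the 2 libraries, and the difference was not tested. Ly6c2, a surface protein of monocytes and plasmacytoid cells, had a ratio of selected over other cells of 0.339 (65.0 against 192 CPM) in the cKIT+ and 13.6 (464 against 34.1 CPM) in the cKIT- library. Cd7 had a ratio of 10.3 (111 against 10.8 CPM) in the cKIT+ and 0.110 (29.0 against 264 CPM) in the cKIT- library. Ccl6, a chemokine, had ratios of 4.57 (321 against 70.3 CPM) and 0.254 (472 against 1855 CPM), and for Ccl6 and Cd7 the level in the other cells differed more between the libraries than that in the selected cells.

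Cells with fewer than 1000 UMIs were in no comparison, and 21 of 207 such cKIT+ cells and 4 of 57 such cKIT- cells reached the MHC class II minimum. They rest on few molecules, with a median of 5 and 13.5 UMIs of the MHC class II genes. Of the 21, 6 held 3 or more C1qa UMIs, and of the 4, 2 held as many C1qa UMIs and 2 held at least 2 Cd79a UMIs.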

How the results depend on the processing

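Of 104 values under an alternative, 82 stayed within 1.5 times the reported count or within its interval and 22 moved. The share of selected cells stayed between 1.32% and 1.48% (cKIT+) and between 0.976% and 1.17% (cKIT-). Without a CPM minimum, genes at least 4-fold higher and lower than in the other cells were 3403 and 353 (cKIT+) and 2723 and 449 (cKIT-), and those higher in the cKIT+ selected cells 199. With 200 CPM they were 74, 38, 101 and 103, and 12 and 25 genes were higher in cKIT+ and cKIT- selected cells. Without the highest Scrublet scores 172 genes were lower in the cKIT+ selected cells. TMM factors moved the median log2 ratio of all genes from -0.09 to -0.26 (cKIT+), from 0.09 to -0.29 (cKIT-) and from -0.15 to 0.01 (between libraries). Clusters numbered 4 at resolution 0.4. The group with the highest Cd209a had 13 cells at resolution 1.5 and 17 with 10 principal components. That with the highest Trim46 kept all 7 cells but had 32 at resolution 0.4, 19 with 10 principal components, 23 with 3000 variable genes, 24 without the rule genes and 28 after thinning. That with the highest Siglech had 22 to 25 cells and kept all 22. Thinning to 1000 UMIs moved the Cd209a shares to 37.6% and 29.0%. No paired analysis was possible because each sort is 1 library. The cause of these shifts was not tested beyond what each setting changes, and a count of 0 allows up to 12.4 CPM in the 38 cKIT- cells and 60.8 CPM in the group of 10 cells.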

Other observations

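Receptors that sense growth factors and microbes were measured in the same cells. Of 16 cytokine receptors, 3 of 10 that reached the minimum were at least 4-fold higher than in the other cells in the cKIT+ library, and 4 of 12 were higher and 1 lower in the cKIT- library. Csf1r, the receptor for macrophage colony-stimulating factor, had 114 and 232 CPM in selected cells, Ifnar1, a chain of the type I interferon receptor, 54.9 and 112 CPM, and Il10ra 62.1 CPM in both. Il7r had 23.1 CPM in cKIT+ and 128 CPM in cKIT- cells, with 33 of its UMIs in 16 of the 22 plasmacytoid-like cells. Unc93b1, which carries toll-like receptors to the endosome, had 280 and 650 CPM, and the other cKIT- cells held 23.4 CPM. Tlr7 had 17.3 and 33.1 CPM, and Tlr9 had no UMI in either library.

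Chemokine receptors and interferon-linked genes varied by group. Ccr2, a receptor for exit from the marrow and entry into tissue, had 838 CPM in cKIT+ and 1719 CPM in cKIT- selected cells. It had 1459 CPM in the type 2 group, 1284 CPM in the plasmacytoid group and no UMI in the 7 cells led by Trim46. Ifitm3, an antiviral membrane protein, had 1197 and 1632 CPM by library, with 2469 CPM in the type 2 group and 16.4 CPM in the plasmacytoid group. Ifit1 had no UMI in either library, Rsad2 none in the cKIT- library, and Isg15 had 18.8 and 41.4 CPM. Of 13 MHC class I genes, 0 were at least 4-fold higher and 1, Calr, was lower in the cKIT+ library, and 0 passed the limit in the cKIT- library. Their median log2 ratio over the other cells was 0.90 and 0.69, beside -0.09 and 0.09 over all genes.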
